A study of Mus musculus with 6 samples.

Results

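Among the Polycomb sites of mouse embryonic stem cells, 217 of 13390 regions (1.62%) carried a peak of RYBP and a peak of Suz12 but none of Ring1B or Cbx7. They were chosen by their called peak positions alone, by pooling the peak lists of the 4 proteins, joining all peaks that shared at least 1 bp into regions, and keeping the regions with that combination. The lists came from chromatin immunoprecipitation with sequencing (ChIP-seq) in the wild-type, feeder-free E14Tg2A line of strain 129/Ola, cultured on gelatin in 20% serum with leukemia inhibitory factor, and the labels name no treatment. Ring1B, Cbx7, Suz12 and RYBP had 1 library each, and the 2 IgG control libraries were not analysed here. The choice of members rests on the called overlaps, so the presence or absence of each protein in them is given as a description. With 1 library per protein there is no replicate check, and no difference below was tested.

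Polycomb proteins keep developmental genes silent in embryonic stem cells through complexes of 2 kinds. PRC2, whose core includes Suz12, methylates histone H3 on lysine 27. PRC1, whose catalytic subunits include Ring1B (an E3 ubiquitin ligase), marks histone H2A. Canonical PRC1 holds a Cbx protein such as Cbx7, which binds the methylated lysine. Variant PRC1 holds RYBP or its close relative YAF2 in place of a Cbx protein. RYBP binds Ring1B directly and can also bind ubiquitinated histone H2A. A site called for RYBP and for PRC2 but not for Ring1B is therefore a combination in which Ring1B, a catalytic partner of RYBP, was not called. No other catalytic subunit of PRC1 was profiled here.

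Most regions that carried RYBP and Suz12 also carried Ring1B. Of 2057 such regions, 1838 held Ring1B (89.4%, 95% Wilson interval 88.0 to 90.6%) and the 217 described here made up 10.6% (9.30 to 12.0%). The remaining 2 held Cbx7 without Ring1B. Outside Ring1B and Cbx7 the pair was uncommon from either side. The 217 regions were 4.86% of the 4467 regions with RYBP (4.27 to 5.53%) and 9.86% of the 2201 regions with Suz12 (8.68 to 11.2%). Where Ring1B was present, 80.5% of the RYBP regions held Suz12 and 33.6% of the Suz12 regions held RYBP. Of 238 RYBP peaks that overlapped Suz12 and had no Ring1B peak directly on them, 218 lay in members. A further 18 lay in regions joined to Ring1B through a neighbouring overlap and are not members.

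The smallest overlap of a member was 119 bp, on chromosome 4 from 126845119 to 126847485 in mm9 coordinates as listed, and the next smallest was 322 bp. Just outside the rule, the closest RYBP-only and Suz12-only regions (with peaks of that list alone) were 116 bp apart on chromosome 11. The RYBP peak there ran from 102328017 to 102329395. Only 11 RYBP-only regions lay within 1 kb of a Suz12-only region without overlap (3 under 200 bp, 4 from 200 to 500 bp and 4 from 500 to 1000 bp), compared with 217 overlaps. On the Ring1B side, the member closest to a Ring1B peak missed it by 77 bp. In the 1049 regions with RYBP, Suz12 and Ring1B but no Cbx7, the longest overlap of Ring1B with a single RYBP or Suz12 peak was never below 377 bp.

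The peaks of a member overlapped over most of their length in the majority of pairs, with 236 kb of overlap in the 371 kb that the members span. Of the 217 regions, 215 held exactly 1 peak of each protein and 2 held 3 peaks, which gave 219 overlapping pairs. The overlap had a median of 1062 bp (quartiles 835 and 1222 bp). Suz12 covered a median of 87.4% of the RYBP peak (95% order-statistic interval 84.3 to 91.4%, lower quartile 71.6%), and RYBP covered a median of 84.2% of the Suz12 peak (79.0 to 89.5%, lower quartile 65.3%). The centres of both peaks lay a median of 182 bp apart (151 to 214 bp), and 119 pairs (54.3%) had centres within 200 bp. In 198 pairs (90.4%, 85.8 to 93.6%) each centre lay inside the other peak. In 215 pairs (98.2%) the overlap reached at least 50% of the shorter peak. The 4 pairs below that share had 13.2%, 26.6%, 32.2% and 38.9% of the shorter peak in the overlap.

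The pairs fell into 3 arrangements. In 116 pairs (53.0%) the peaks were offset, each extending past the other on one side. The Suz12 peak lay wholly inside the RYBP peak in 53 pairs (24.2%, 19.0 to 30.3%), and the RYBP peak lay inside the Suz12 peak in 50 pairs (22.8%, 17.8 to 28.8%). Over all 3 arrangements, the Suz12 centre lay at the higher genome coordinate in 108 of 219 pairs. Gene orientation was not used, so a shift relative to genes could not show in this count. Suz12 was the wider peak in 112 of the 219 pairs (51.1%), and the median ratio of Suz12 to RYBP width was 1.02.

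**Figure D1:**
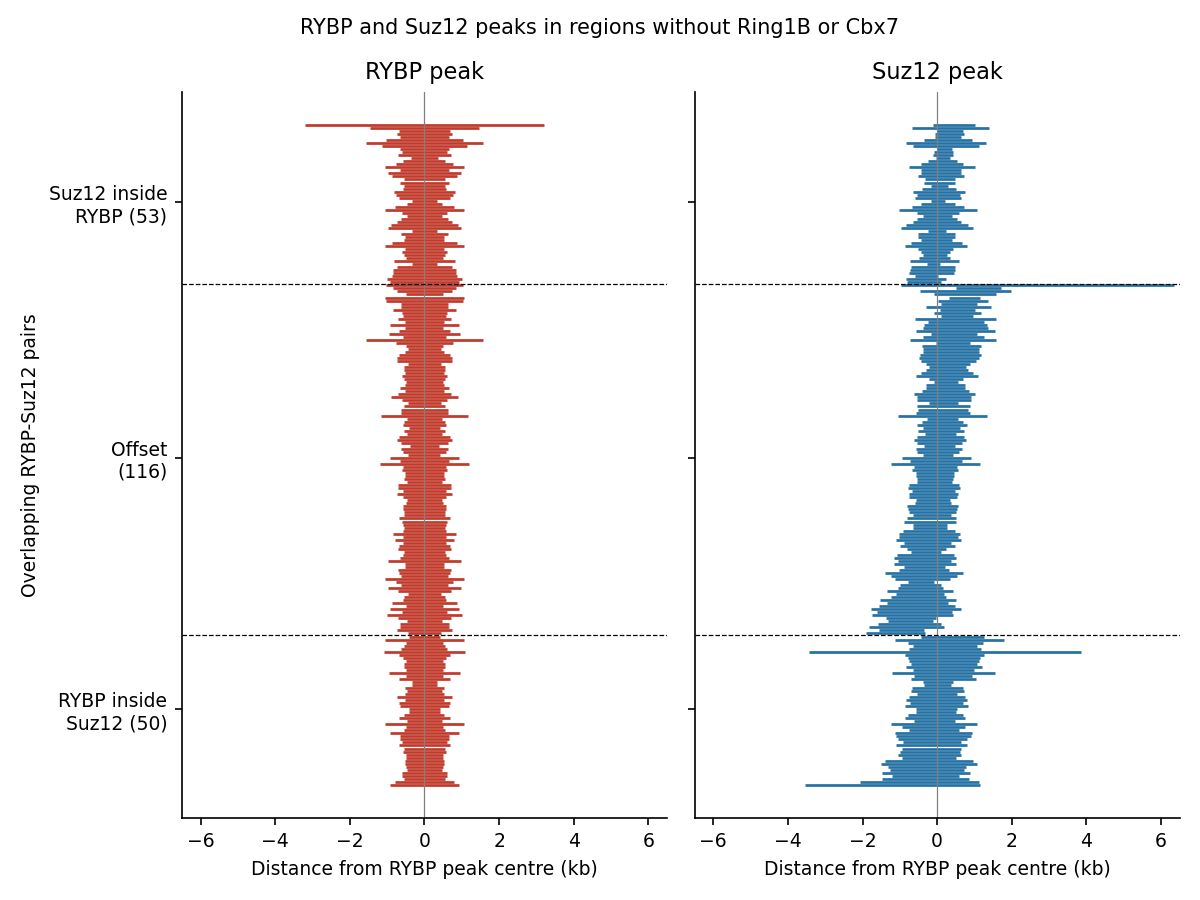
RYBP peaks (left, red) and Suz12 peaks (right, blue) of the 219 overlapping pairs in regions without Ring1B or Cbx7, 1 line per pair, as distance in kb from the centre of the RYBP peak. Dashed lines separate the 53 pairs with Suz12 inside RYBP, the 116 offset pairs and the 50 pairs with RYBP inside Suz12, and most Suz12 peaks span the RYBP centre.

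The arrangement differed in regions where Ring1B was also called. With Ring1B and without Cbx7 (1109 pairs in 1049 regions), RYBP lay inside Suz12 in 48.2% of pairs (45.2 to 51.1%) and Suz12 inside RYBP in 12.9% (11.1 to 15.0%). With all 4 proteins (857 pairs in 789 regions), the shares were 84.3% (81.7 to 86.5%) and 1.52% (0.889 to 2.58%). Suz12 was the wider peak in 75.7% and 97.3% of those pairs, and the median ratio of Suz12 to RYBP width was 1.29 and 2.19. The median distance between centres was 182 bp in the members (151 to 214 bp) and 201 bp with Ring1B (185.5 to 214.5 bp), with overlapping intervals. With all 4 proteins it was 349 bp (320 to 388 bp). Correlation of the widths of paired peaks was weak in the members (Pearson r = 0.28, Spearman rho = 0.31 over 219 pairs, which share 2 libraries). It was similar with Ring1B and without Cbx7 (r = 0.35, rho = 0.32) and lower with all 4 proteins (r = 0.11, rho = 0.10).

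The RYBP peaks of the members were about as wide as isolated RYBP peaks, whereas their Suz12 peaks were wider than isolated Suz12 peaks. The 218 RYBP peaks had a median width of 1217 bp (1156 to 1290 bp), the 4250 RYBP peaks that overlapped no other list had 1177 bp (1164 to 1188 bp), and those with Suz12 and Ring1B had 1322 bp (1289 to 1358 bp). With all 4 proteins the RYBP median was 1338 bp (1304 to 1368 bp), an interval above that of the members. The 218 Suz12 peaks had a median width of 1344 bp (1258 to 1420 bp), the 1984 Suz12 peaks that overlapped no other list had 853 bp (829 to 878 bp), and those with RYBP and Ring1B had 1817 bp (1761 to 1867 bp). Suz12 peaks with all 4 proteins were the widest of these sets at 2892 bp (2795 to 2960 bp). The width of the merged members ranged from 657 to 7386 bp around a median of 1606 bp, with quartiles of 1300 and 1996 bp, and together they spanned 371 kb. A wider peak has more chance to overlap another, and peak width can depend on signal strength, so these widths are not independent of the rule.

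**Figure D2:**
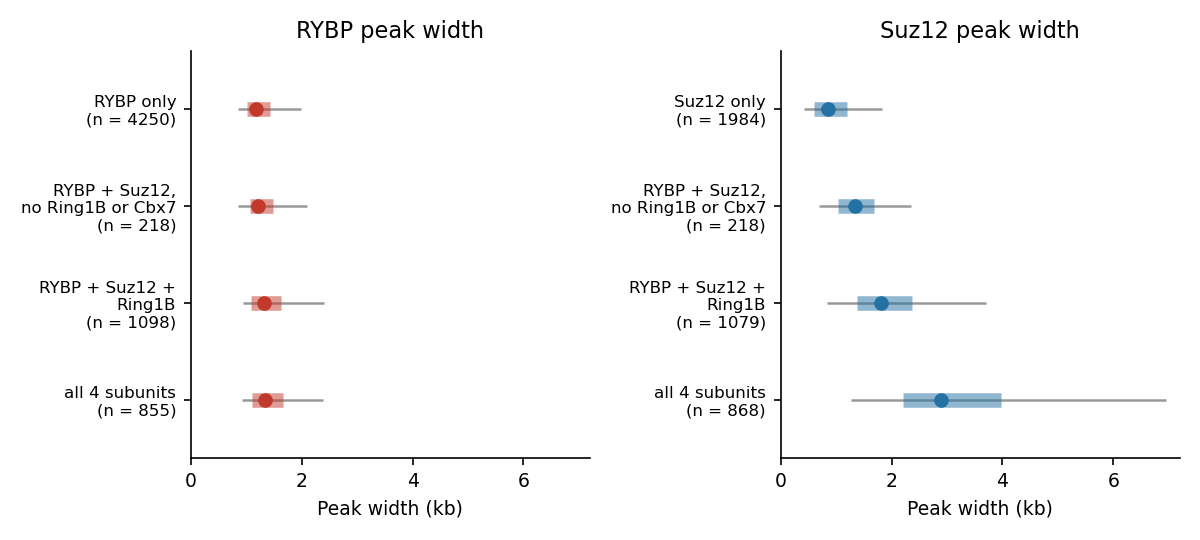
Width in kb of RYBP peaks (left) and Suz12 peaks (right) by the proteins called in their region. Points are medians, thick bars span the quartiles and thin lines the 5th to 95th percentiles. RYBP medians lie between 1177 and 1338 bp, while Suz12 medians range from 853 bp alone through 1344 bp in the members to 2892 bp with all 4 proteins.

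The share of Suz12 peaks that lay in a member followed Suz12 width closely. Among the 2202 Suz12 peaks in regions without Ring1B or Cbx7, it was 1.81% in the narrowest quintile (0.922 to 3.54%), 2.29% in the second, 7.47% in the third, 13.9% in the fourth and 23.9% in the widest (20.2 to 28.1%). Among the 4468 RYBP peaks in such regions, it ranged from 3.47% in the narrowest quintile (2.46 to 4.89%) to 5.69% in the widest (4.35 to 7.40%), and the intervals of all 5 quintiles overlapped. Seen from the other side, regions with RYBP and Suz12 lacked Ring1B and Cbx7 mostly where Suz12 was narrow. Of the 412 such regions in the narrowest quintile of Suz12 width, 29.1% were members (24.95 to 33.7%), compared with 7.54% of the middle quintile and 0.485% of the widest (2 of 412 regions). By RYBP width the same share ran from 13.4% in the narrowest quintile to 8.72% in the widest.

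Of the 217 members, 176 regions lay over 10 kb from any Ring1B peak. The distance from the edge of the region to the nearest Ring1B peak had a median of 60.1 kb (46.4 to 80.7 kb), quartiles of 17.5 and 144 kb, and a range from 77 bp to 1035 kb. Within 1 kb of Ring1B lay 4 members, within 5 kb 23 (10.6%), within 10 kb 41 (18.9%, 14.2 to 24.6%), and within 100 kb 136 (62.7%). With RYBP and Suz12 peaks of at least median width only, 46 members were left, with a median of 37392 bp to Ring1B (7907 to 81226 bp) and 39.1% within 10 kb (26.4 to 53.5%). These 46 included all 6 members of the chromosome 6 window described below, each within 10 kb of Ring1B. RYBP-only regions had a median distance of 75.6 kb (72.2 to 79.5 kb), with 8.24% within 10 kb (7.45 to 9.10%). Suz12-only regions had a median of 61.0 kb (52.2 to 67.9 kb), with 22.7% within 10 kb (20.9 to 24.6%). Within 1 kb of Ring1B lay 1.84% of members (0.719 to 4.64%) and 0.918% of RYBP-only regions (0.672 to 1.25%), with overlapping intervals, and 9.22% of Suz12-only regions (8.03 to 10.6%). Distance to the nearest Cbx7 peak had a median of 235 kb in the members.

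**Figure D3:**
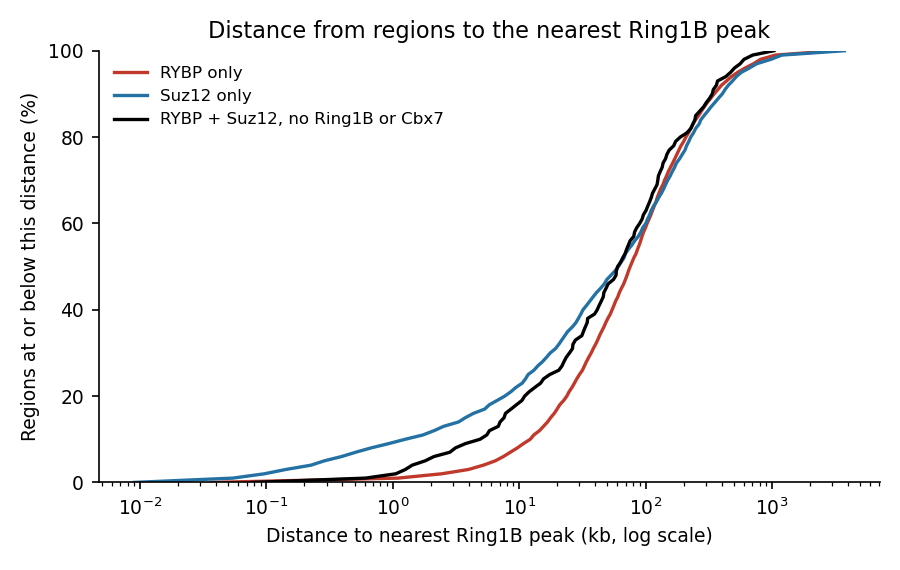
Cumulative share (%) of regions against distance to the nearest Ring1B peak in kb on a log scale, for 4250 RYBP-only regions (red), 1984 Suz12-only regions (blue) and the 217 regions with RYBP and Suz12 (black). At 10 kb the black curve (18.9%) lies between the red (8.24%) and the blue (22.7%), and beyond 100 kb the curves run close together.

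Among regions without Ring1B or Cbx7, those with RYBP held Suz12 most often close to Ring1B, and those with Suz12 held RYBP least often there. Within 5 kb of a Ring1B peak lay 16.8% of Suz12-only and 3.88% of RYBP-only regions. Of the 188 RYBP regions without Ring1B or Cbx7 that lay within 5 kb of a Ring1B peak, 12.2% held Suz12 (23 regions, 8.29 to 17.7%). The share was 5.57% from 5 to 20 kb (3.99 to 7.71%), and between 3.94% and 4.65% in the 4 bins beyond 20 kb. Leaving out the chromosome 6 window described below, it was 11.05% within 5 kb (7.27 to 16.5%). The corresponding share of Suz12 regions that held RYBP was 6.46% within 5 kb (4.34 to 9.51%), rose to 12.8% from 50 to 100 kb (9.43 to 17.2%) and was 8.48% beyond 200 kb (6.36 to 11.2%). The members farthest from Ring1B therefore were as large a fraction of the RYBP regions at that range (4.58%, 43 of 938) as those at middle distances.

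**Figure D4:**
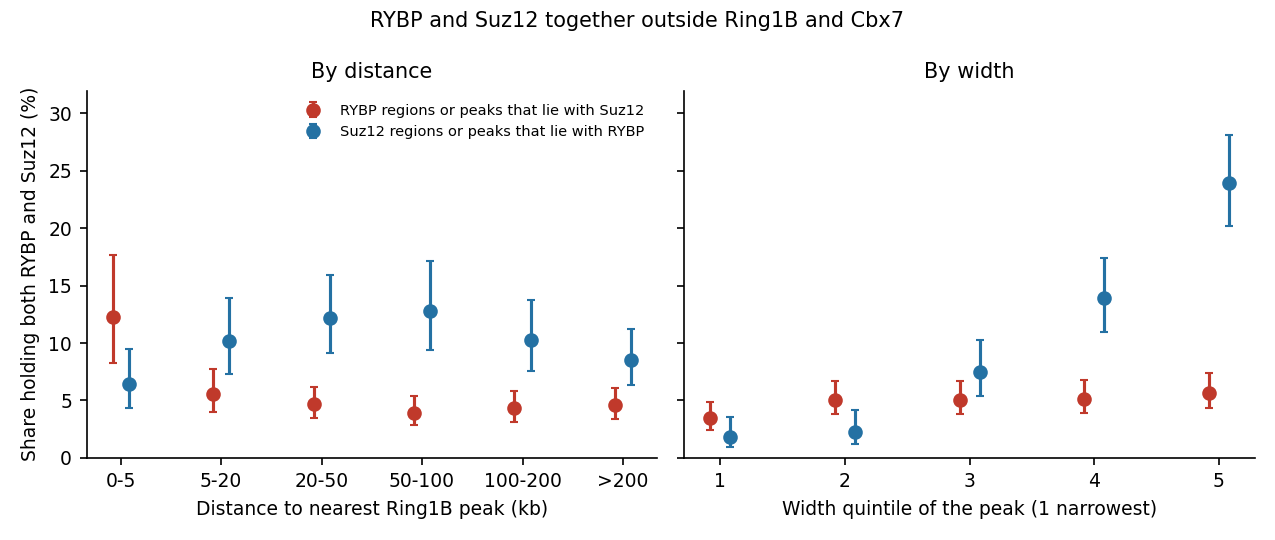
Share (%) of RYBP regions or peaks (red) and Suz12 regions or peaks (blue) without Ring1B or Cbx7 that hold both proteins, by distance to the nearest Ring1B peak in kb (left, regions) and by width quintile of the peak (right, peaks). Bars are 95% Wilson intervals. The blue points climb from 1.81% to 23.9% with Suz12 width, and the red points are highest within 5 kb of Ring1B at 12.2%. In the left panel the blue points are lowest within 5 kb, at 6.46%.

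Members near Ring1B had a larger median Suz12 width than distant ones, with intervals that overlapped. The 43 pairs of the 41 members within 10 kb had a median Suz12 width of 1736 bp (1336 to 2022 bp) and a median RYBP width of 1373 bp (1222 to 1587 bp). For the 176 pairs beyond 10 kb the medians were 1301 bp (1209 to 1391 bp) and 1180 bp (1135 to 1256 bp). RYBP covered a median of 66.2% of the Suz12 peak near Ring1B (56.0 to 85.3%) and 86.7% farther away (80.7 to 92.6%), with overlapping intervals. RYBP lay inside Suz12 in 34.9% of the near pairs (22.4 to 49.8%) and in 19.9% of the others (14.7 to 26.4%). The Suz12 centre was shifted from the RYBP centre toward the Ring1B peak in 26 of the 43 near pairs (60.5%, 45.6 to 73.6%) and in 80 of the 176 distant pairs (45.5%, 38.3 to 52.8%). Without the chromosome 6 window described below, 35 members remained within 10 kb, and the 36 near pairs had median widths of 1646 bp for Suz12 (1314 to 1853 bp) and 1266 bp for RYBP (1058 to 1416 bp).

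The nearest Ring1B peak of a member was itself in a region with Suz12 for 164 of 217 members (75.6%, 69.5 to 80.8%), with RYBP for 98 (45.2%, 38.7 to 51.8%) and with Cbx7 for 61 (28.1%, 22.6 to 34.4%). Over all 6982 Ring1B peaks these shares were 82.1%, 34.0% and 36.3%. RYBP-only regions gave values close to those of the members for RYBP (43.9%) and Cbx7 (27.5%), and Suz12-only regions gave 33.7% and 35.2%. For Suz12 the shares were 78.1% in RYBP-only and 80.65% in Suz12-only regions, both within the interval of the members. The members had 206 distinct nearest Ring1B peaks, so few shared one.

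Single members illustrate the range of arrangements. The longest overlap, 2350 bp, was on chromosome 6 from 114578048 to 114580489, where RYBP (2407 bp) and Suz12 (2384 bp) peaks had centres 45.5 bp apart and Ring1B began 77 bp further on. The second, on chromosome 3 from 96135953 to 96139089, shared 2284 bp and lay 48.7 kb from Ring1B. A member on chromosome 10 from 21930493 to 21933644 held a Suz12 peak of 2139 bp wholly inside a RYBP peak of 3151 bp, 50.4 kb from Ring1B. The other two among the 5 longest overlaps, of 2218 and 2147 bp, were also in the chromosome 6 window described below. Long overlaps thus occurred next to Ring1B and at 48.7 and 50.4 kb from it.

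At the other end, the 119-bp overlap on chromosome 4 joined a RYBP peak of 902 bp to a Suz12 peak of 1583 bp whose centres lay 1124 bp apart. On chromosome 12 from 109570954 to 109573512, a RYBP peak of 1670 bp bridged 2 Suz12 peaks, of 1215 and 1210 bp, holding the first entirely and 322 bp of the second. Small overlaps also arose from small peaks: on chromosome 3 from 28012721 to 28013405 a Suz12 peak of 336 bp, the narrowest of all members, lay inside a RYBP peak of 684 bp. The next shortest were 366 bp on chromosome 13 from 69749520 to 69751298 and 370 bp on chromosome 5 from 92431881 to 92432624. A short overlap thus marked either flanking peaks or a narrow peak within a wider one.

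The member farthest from Ring1B lay on chromosome 6 from 58973900 to 58974920, 1035 kb from the nearest Ring1B peak, with a RYBP peak of 904 bp and a Suz12 peak of 797 bp. The second, on chromosome 17 from 31037290 to 31040057, was 733 kb away, and the third, on chromosome 2 from 69423188 to 69424670, was 722 kb away. The fourth lay at 612 kb on chromosome 13 (39051812 to 39053015) and the fifth at 607 kb on chromosome 11 (47192231 to 47193463). Of these 5, the chromosome 17 member stood out by width, with a RYBP peak of 1923 bp inside a Suz12 peak of 2767 bp. The other 4 had Suz12 peaks between 797 and 1404 bp. In all 5, Suz12 covered at least 72.9% of the RYBP peak.

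Of the 5 members nearest to Ring1B, 3 were on chromosome 6 in the window described below. The other two lay on chromosome 5 from 112819900 to 112821919, 586 bp from Ring1B, and on chromosome 11 from 96882250 to 96884338, 1008 bp from it. In both the RYBP peak (1004 and 1016 bp) was wholly inside a Suz12 peak of 2019 and 2088 bp, of which it covered 49.7% and 48.7%. Among the 5 widest members, that on chromosome 4 from 145614030 to 145620420 owed its 6.39 kb to a RYBP peak, the widest of the members, of which Suz12 covered 17.7%. The others were 2 members of the chromosome 6 window (7.39 and 4.68 kb), the chromosome 10 member above, and one on chromosome 19 from 45119394 to 45122575 (3.18 kb), in which a Suz12 peak held a RYBP peak of 1587 bp.

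Most members were alone in their window of 1 Mb, and a few windows held several. Members occupied 190 windows of 1 Mb, of which 169 held 1 member, 19 held 2, and 2 held 3 or more. The 5 windows with most members held 16 of them (7.37%, 4.59 to 11.6%). The share in the 5 fullest windows was 3.22% for RYBP-only regions (137 of 4250, 2.733 to 3.798%) and 2.62% for Suz12-only regions (52 of 1984, 2.004 to 3.421%), sets that are larger and occupied 1268 and 1099 windows. The windows were picked for their counts, which the intervals do not cover. Such a share also depends on the size of the set, so the 3 values are not directly comparable. The median distance to the nearest other member was 1471 kb, and 10 of 216 members with another on their chromosome had one within 10 kb. Of the 21 windows with 20 or more RYBP peaks, 9 held a member, and these windows had 16 members in all (7.37%) compared with 8.54% of RYBP-only and 1.86% of Suz12-only regions. The window with most RYBP peaks (52), on chromosome 17 from 30000000 to 31000000, held 2 Suz12 peaks and no member, although the chromosome 17 member named above lay just past its upper end.

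One stretch of chromosome 6 was unlike the rest. The window from 114000000 to 115000000 held 6 members together with 48 RYBP, 34 Suz12, 21 Ring1B and 2 Cbx7 peaks. All 6 lay in a run of peaks with no gap over 5 kb, from 114439479 to 114593679 (154 kb), in which 43 RYBP peaks covered 71.9% of the sequence, 29 Suz12 peaks 83.3% and 16 Ring1B peaks 42.3%, with no Cbx7 peak. The nearest peaks of any list outside the run were 89.4 kb before and 231 kb after it. By the same rule no other run in the genome held more than 10 RYBP peaks. The members there filled spaces between Ring1B peaks at distances of 77 bp to 9.72 kb. They included the widest member, from 114565663 to 114573049, in which a Suz12 peak of 7312 bp carried 2 RYBP peaks of 2088 and 2147 bp. Only 21 bp separated it from its neighbour, from 114563508 to 114565642, and a further pair, from 114477719 to 114480006 and from 114480108 to 114484784, was 102 bp apart. The member from 114489632 to 114492143 had an overlap of 2218 bp, and the last of the 6 is the one with the longest overlap of all, given above. From positions alone, broad binding along this run cannot be told apart from a gain in copy number. Without this window 211 members remained, with a median of 64.2 kb to Ring1B and 16.6% within 10 kb.

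**Figure D5:**
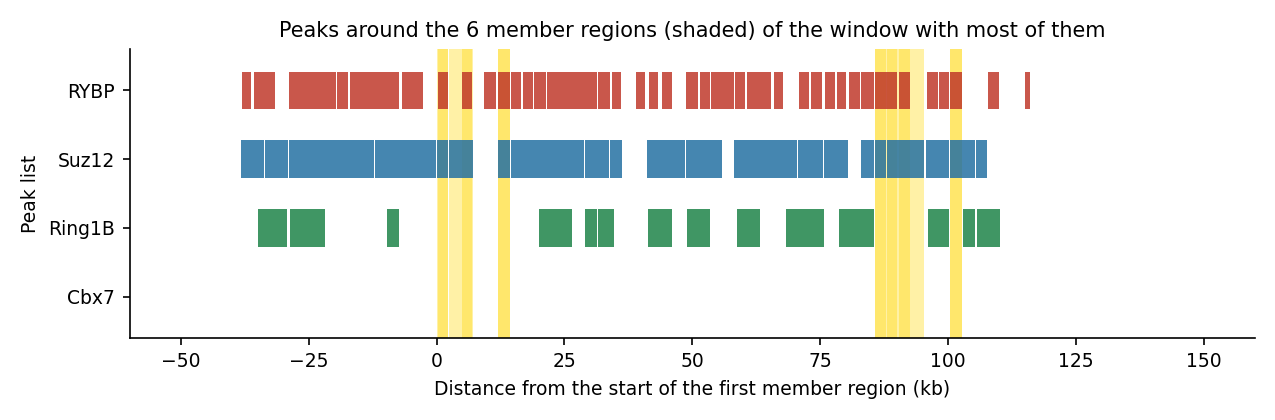
Peaks of the 4 lists around the 6 members of the chromosome 6 window (shaded), by distance in kb from the start of the first member. RYBP and Suz12 peaks tile a run of 154 kb, Ring1B peaks cover 42.3% of it, and the members lie between Ring1B peaks.

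The second densest window, on chromosome 15 from 100000000 to 101000000, had 4 members, 16 RYBP, 17 Suz12 and 10 Ring1B peaks. Its members, starting at 100298528, 100324739, 100591883 and 100700212, were separate sites of 1.03 to 1.86 kb, between 31.2 and 112 kb from Ring1B. All 4 were offset pairs, with overlaps from 623 to 1203 bp. The remaining windows among the first 5 held 2 members each, as did 19 windows in all, and were taken from these ties in order of chromosome and position. On chromosome 2 these began at 25173771 and 25283280, and at 30328482 and 30566450. On chromosome 3 they began at 54436727 and 54985479. Their overlaps ranged from 705 to 1171 bp, around the median of 1062 bp over all pairs.

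By chromosome, 26 members (12.0%) were on chromosome 6 and 24 (11.1%) on chromosome 11, where RYBP regions without Ring1B or Cbx7 were also most numerous (426 and 464). As a share of those RYBP regions, members made up 6.10% on chromosome 6 (4.20 to 8.79%) and 5.17% on chromosome 11 (3.50 to 7.58%). The autosomal range was 1.62% on chromosome 14 (3 of 185 regions, 0.553 to 4.66%) to 7.04% on chromosome 9 (15 of 213, 4.31 to 11.3%). As a share of Suz12 regions without Ring1B or Cbx7, chromosome 6 had 21.8% (26 of 119, 15.4 to 30.1%), and chromosome 14, the lowest autosome, had 3 of 75 (1.37 to 11.1%). Of the 26 members on chromosome 6, 6 lay in the single window described above. On X there was 1 member, from 166407429 to 166409179, with a Suz12 peak of 630 bp inside a RYBP peak of 1750 bp. It was 1 of 18 RYBP regions (5.56%, 0.988 to 25.8%) and 1 of 51 Suz12 regions (1.96%, 0.347 to 10.3%) of X outside Ring1B and Cbx7. The RYBP list held no peak on Y.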

How the data were processed

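The authors deposited 1 peak list per protein, and the other values in these lists are peak start and end positions in bp, without any height, score or p-value. Build mm9 and the tools MACS 1.3.7.1 and Bowtie 0.12.7 are named, with no role, in the submitters' processing notes. For the calling threshold, the control and any pooling, the sources used here say nothing, and the number in the name column (5 for RYBP, 10 for the other lists) has no stated meaning. Whether Ring1B lay below its calling threshold at the members was not tested, since read depth is unknown.

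A list belongs to the sample whose target its name column carries. Widths are end minus start, and distances run between nearest edges. Shares have 95% Wilson intervals and medians 95% order-statistic (binomial) intervals, which treat regions as independent and do not cover variation between libraries. No test was run. Member counts, overlaps, centre offsets, nearest distances and median intervals were checked on simulated lists. The simulated paired peaks had equal widths, so arrangements with a peak inside a wider one and width ratios were not checked. Python 3.11.15, numpy 2.4.6, pandas 2.3.3, SciPy 1.17.1 and matplotlib 3.10.9 were used.

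Regions are named in place of genes: the 5 members with the longest and shortest overlap, nearest to and farthest from Ring1B, and widest, and up to 5 members of each of the 5 windows with most. The members outside this rule (the member of X, both regions with 3 peaks, the sixth of the chromosome 6 window) were chosen after their values were seen. Members and lists were chosen with earlier results of these data known. The gene tables at hand were of another build, so genes and sequences were not used here.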

Additional observations from a re-analysis of the deposited data

How the results depend on the processing

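Each of 10 summary values of the members was recomputed under 6 settings, and 49 of the 60 recomputed values stayed within the interval of the original (for the number of members, within 1.5 times). Requiring an overlap of 50% of the shorter peak, or joining peaks up to 1 kb apart, again gave 217 members, with 215 and 206 of the 218 RYBP peaks shared. Joining at 1 kb lowered the share within 10 kb of Ring1B to 13.8%. Under this setting a region within 1 kb of a Ring1B peak joins it and cannot be a member, by construction. How much of the fall this accounts for was not tested. Keeping only RYBP and Suz12 peaks of at least median width in their lists moved all 10 values beyond the limits above. It left 46 members, fewer by construction. Their median region width was 2109 bp, the RYBP width 1712 bp, the Suz12 width 1923 bp, the centre offset 232 bp and the distance to Ring1B 37392 bp. Suz12 covered a median of 92.9% of the RYBP peak and RYBP 72.2% of the Suz12 peak, 39.1% of members lay within 10 kb of Ring1B and 23.9% in the 5 fullest windows. All 6 members of the chromosome 6 window are among these 46. Leaving out X and Y, the fullest window, or windows with 20 or more RYBP peaks left 216, 211 and 201 members. These settings thus kept most of the same regions, so little change in their values was possible. The share of RYBP regions within 5 kb of Ring1B that held Suz12, a value added after the data were seen, stayed between 11.05% and 13.0% over the 6 settings. No paired analysis was possible because each protein had 1 library. Without heights or scores, no stricter threshold other than width could be applied, and read depth is unknown.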
